A study of Mus musculus with 6 samples.

Results

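*Rab4a* and 9 further genes of small GTPases that act on endosomes (*Rab4b*, *Rab5a*, *Rab5c*, *Rab7*, *Rab11a*, *Rab11b*, *Rab14*, *Rab19* and *Rab35*) were described in macrophages with and without the gene *Lcn10*. They are 10 of the 24972 rows of the expression table and were taken by symbol. The set was selected on the normalized counts of these same libraries: *Rab4a* stood higher in the knockout and the other genes were put beside it. Its difference between genotypes is therefore given as a description, with no p-value and not as a test, and so are those of the other members. The fit over all genes includes the members, and their calls are counted below, but nothing is read from those counts. All 10 genes passed the filter on low values that left 12091 genes for testing.

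Rab proteins are molecular switches: with GTP bound they sit on a membrane and recruit effectors, and with GDP bound they are drawn off it by GDP dissociation inhibitors. Exchange factors, many of them of the DENN family, load GTP, and proteins with a TBC domain speed its hydrolysis. Each Rab marks a compartment: Rab5 the early endosome, Rab4 the fast route from there back to the cell surface, Rab11 the slower route through the recycling endosome, and Rab7 the late endosome on its way to the lysosome. Macrophages depend on these routes for the uptake of particles and the return of receptors to the surface.

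The RNA-seq libraries came from untreated primary macrophages that had been raised from mouse bone marrow in medium with L929 supernatant. The marrow was wild-type (WT) or carried a knockout of *Lcn10* (Lcn10-KO), a gene for a lipocalin. Each genotype had 3 libraries. No strain, sex, age or allele design stands in the labels used here. Nor do they state that replicates are separate mice, so a p-value covers only the spread between these libraries, which may be technical. For each gene the test, limma, takes that spread in part from a trend over all genes tested.

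Values are normalized counts, that is read counts the authors scaled between libraries, and the scaled totals lay within 20476668 to 20636260. The value of a single read, read off the steps between low values, put the depth at about 17998810 to 24850325 reads for WT and 19219823 to 24407167 for Lcn10-KO. *Lcn10* was listed at 0 in all 6 libraries, so it cannot check the genotype labels. All 8 macrophage markers looked at were tested genes, and together they held 280139 to 290881 normalized counts in WT and 293764 to 308309 in Lcn10-KO. Of these 8, *Adgre1* and *Mertk* rose (log2 fold change 0.26 and 0.44, limma adjusted p = 0.0338 and 0.00128) and *Csf1r* and *Cd14* fell (-0.23 and -0.17, adjusted p = 0.0129 and 0.0449); these 4 were named after their values were seen. No list of markers of another cell type exceeded 0.0217% of the mean scaled total, and none of their tested genes passed the threshold. The summed levels of the 6 endothelial markers were 320 to 448 in WT and 311 to 721 in Lcn10-KO, and those of the 6 fibroblast markers were 2882 to 4469.9 in WT and 3784 to 4268 in Lcn10-KO. *Ly6g*, a neutrophil marker, was listed at 0 in every library. The part of such cells, or of the shift in macrophage markers, in the differences below was not tested, and in bulk RNA fewer cells that express a gene and less of its RNA per cell cannot be told apart.

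*Rab4a* and *Rab4b* are paralogues, and whether their reads can be told apart bears on every value of the pair. Their coding sequences, from GENCODE transcripts on GRCm38, are 657 and 642 bases long and share 74.8% of 642 aligned bases. The stretch around their longest identical run is shown, with the differing bases in capitals. It lies in the coding part of exons 5 and 6 of both transcripts, between chr8:123830336-123832863 on the plus strand for *Rab4a* and chr7:27172899-27174473 on the minus strand for *Rab4b*, spans that include the intron.
Rab4a, coding bases 394 to 506: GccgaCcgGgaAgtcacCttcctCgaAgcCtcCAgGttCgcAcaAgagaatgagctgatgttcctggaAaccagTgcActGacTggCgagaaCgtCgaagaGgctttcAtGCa
Rab4b, coding bases 379 to 491: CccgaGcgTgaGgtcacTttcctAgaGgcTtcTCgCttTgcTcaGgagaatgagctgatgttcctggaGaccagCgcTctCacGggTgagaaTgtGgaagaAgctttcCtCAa
Of these 113 bases 26 differ, and no run of more than 23 identical bases is shared by the full transcripts of *Rab4a* and *Rab4b*. The same limit of 23 bases holds over all 45 pairs of the 10 genes, for 1 transcript per gene. With the 8 other members *Rab4a* shared 55.7% to 62.6% of aligned coding bases, and *Rab14* was the closest of these. The read length was not among the labels used here.

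Levels of *Rab4a*, which drives the fast return of receptors from early endosomes, separated the genotypes. The gene (ENSMUSG00000019478.16, chromosome 8, 123805985 to 123835287, plus strand, GRCm38) had 49.8, 68.5 and 61.0 normalized counts in WT replicates 1, 2 and 3 and 225, 248 and 234 in Lcn10-KO replicates 1, 2 and 3. The lowest Lcn10-KO library thus lay above the highest WT library by a wide margin, and WT replicate 1 was the lowest of the 6. The group means were 59.8 ± 9.39 and 236 ± 11.7 (SD, n = 3 each), a ratio of 3.94. On the scale of log2(value + 1) the fitted difference was 1.97 ± 0.14 (SE). This SE and those below come from limma, which draws the spread of each gene toward a trend over all genes tested. In approximate reads the WT values rested on 43.7 to 74.0 and the Lcn10-KO values on 209.7 to 293. Another annotated gene, *Gm20388*, runs from 119910841 to 124345722 on the same strand of chromosome 8 and covers *Rab4a*. No values were listed under its symbol, and reads of both cannot be told apart within *Rab4a*.

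*Rab4b* (ENSMUSG00000053291.15, chromosome 7, 27168424 to 27178896, minus strand), the paralogue that acts on the same recycling route, had 776, 858 and 841 normalized counts in WT and 868, 897 and 874 in Lcn10-KO. Its Lcn10-KO libraries lay above its WT libraries by a small margin, with a log2 difference of 0.09 ± 0.06 (SE). Per kilobase *Rab4b* was the more abundant of the pair in every library. Per kilobase of transcript, *Rab4a* made up 5.71% ± 0.584 of the summed level of the pair in WT and 18.4% ± 0.492 in Lcn10-KO (SD, n = 3 each). Another annotated gene, *Gm21983*, runs from 27168430 to 27181086 on the same strand of chromosome 7 and covers nearly all of *Rab4b*. No values were listed under its symbol. Reads of both cannot be told apart, and the shares of the pair carry this limit on both sides. The summed normalized counts of the pair were 885 ± 52.5 in WT and 1115 ± 27.1 in Lcn10-KO.

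*Rab19* (ENSMUSG00000029923.4, chromosome 6, 39381175 to 39390380, plus strand), a Rab less studied than the others here, was the other member with a clear gap between the genotypes. It had 83.7, 132 and 95.6 normalized counts in WT replicates 1, 2 and 3 and 187, 181 and 174 in Lcn10-KO replicates 1, 2 and 3. The WT libraries were far more spread (coefficient of variation 24.4%) than the Lcn10-KO libraries (3.74%), with WT replicate 2 the highest of the WT libraries and still below every Lcn10-KO library. The group means were 104 ± 25.4 and 181 ± 6.77 (SD, n = 3 each), a ratio of 1.74, and the log2 difference was 0.82 ± 0.15 (SE). Without WT replicate 2 the difference was 1.01, and without WT replicate 1 it was 0.68.

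**Figure D1:**
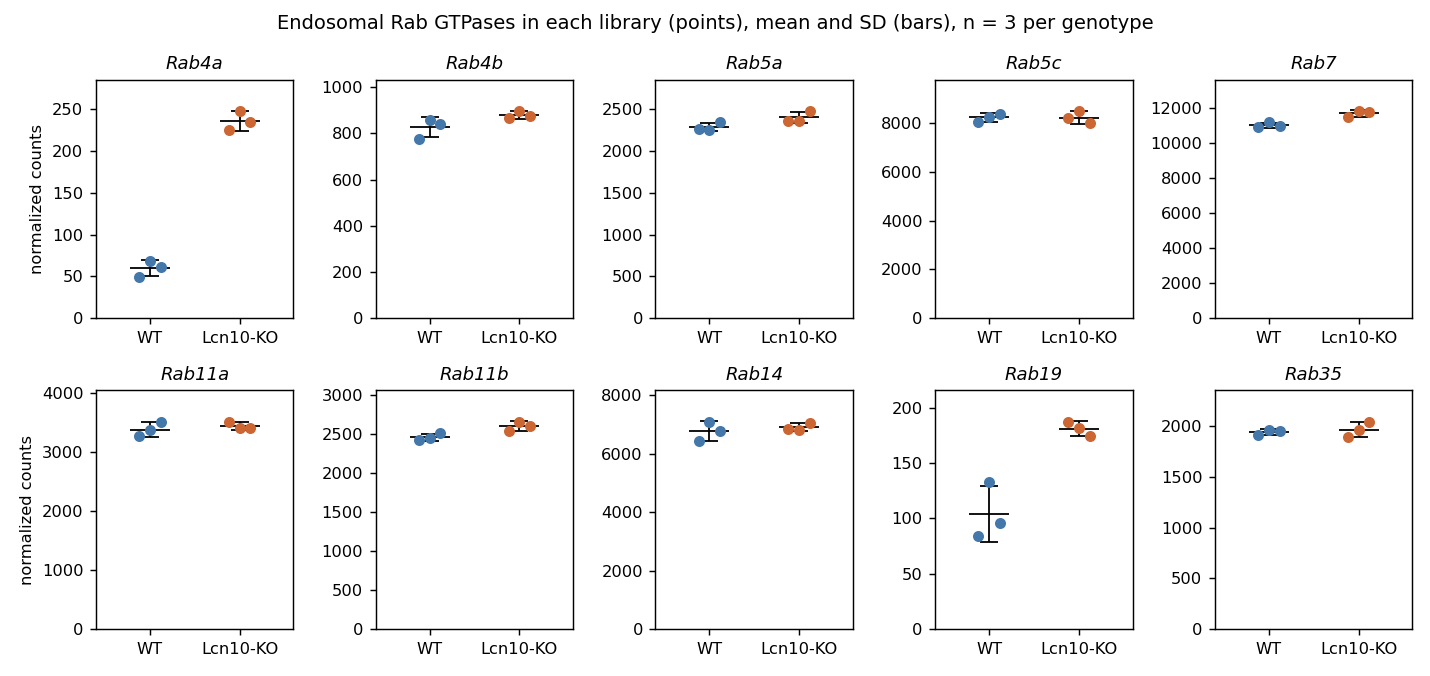
Normalized counts of the 10 endosomal Rab genes (vertical axes from 0, a scale of its own for each gene) in the 3 WT and 3 Lcn10-KO libraries; points are libraries, bars the mean and SD. *Rab4a* (WT mean 59.8, Lcn10-KO mean 236) and *Rab19* (104 and 181) stand apart from the other 8, whose means differ little between the genotypes.

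The early endosome Rabs differed little. *Rab5a* (chromosome 17, 53479234 to 53507680, plus strand), which governs the fusion of early endosomes, had 2269, 2249 and 2345 normalized counts in WT, against 2365, 2361 and 2481 in Lcn10-KO. The lowest Lcn10-KO value exceeded the highest WT value by a narrow gap, and the log2 difference was 0.07 ± 0.04 (SE). *Rab5c* (chromosome 11, 100715009 to 100738215, minus strand), an isoform with the same job and a higher level per kilobase, had 8039, 8261 and 8379 in WT and 8189.7, 8497 and 7979 in Lcn10-KO. Its groups overlapped fully, since Lcn10-KO held both the highest and the lowest library, and the log2 difference was -0.0011 ± 0.04 (SE). Per kilobase, *Rab5a* made up 18.4% ± 0.283 of the summed *Rab5a* and *Rab5c* level in WT and 19.1% ± 0.886 in Lcn10-KO (SD, n = 3 each). These shares of the *Rab5* pair differed by less than the SD of the Lcn10-KO libraries.

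*Rab7* (chromosome 6, 87999106 to 88045270, minus strand), which directs late endosomes to lysosomes, was the member with the most normalized counts, in total and per kilobase. It had 10915, 11170.2 and 10939 in WT, against 11461, 11820.4 and 11766 in Lcn10-KO. The groups did not overlap, but the gap was narrow, with a log2 difference of 0.09 ± 0.04 (SE). An antisense gene, *Gm5577*, overlaps one end of *Rab7* and had values of 5.70 to 12.5; whether the counting used strand is unknown, so reads of both cannot be told apart there.

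Of the Rabs of the slower recycling route, *Rab11a* (chromosome 9, 64715299 to 64737758, minus strand) had 3266, 3370.4 and 3510.1 normalized counts in WT, against 3520.0, 3409 and 3406 in Lcn10-KO. The groups overlapped, and the log2 difference was 0.03 ± 0.04 (SE). *Rab11b* (chromosome 17, 33742484 to 33760530, minus strand) had 2420.3, 2441 and 2504 in WT and 2535, 2657 and 2602 in Lcn10-KO. All Lcn10-KO libraries of *Rab11b* lay above the WT libraries, with a log2 difference of 0.08 ± 0.04 (SE). *Rab11a* held 78.3% ± 0.326 of the summed pair per kilobase in WT and 77.6% ± 0.708 in Lcn10-KO (SD, n = 3 each).

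*Rab14* (chromosome 2, 35180205 to 35201120, minus strand), which works between the Golgi and endosomes, had 6422, 7103 and 6772 normalized counts in WT, against 6859, 6819.9 and 7059 in Lcn10-KO. The Lcn10-KO libraries lay inside the WT range, and the log2 difference was 0.03 ± 0.04 (SE). *Rab35* (chromosome 5, 115631908 to 115647736, plus strand), a Rab of fast recycling and of cytokinesis, had 1909, 1962 and 1954 in WT and 1893, 1963 and 2047 in Lcn10-KO. Here too the groups overlapped, with a log2 difference of 0.02 ± 0.05 (SE).

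Apart from *Rab4a* and *Rab19*, the 8 members had log2 differences from -0.0011 (*Rab5c*) to 0.09 (*Rab4b*), with standard errors of 0.038 to 0.056. The median size of these 8 differences was 0.05, against 0.10 over all genes tested. Over the 10 members the median log2 difference was 0.08, against -0.0011 over all genes tested. In the limma fit over all genes, 2 of the 10 members, *Rab4a* and *Rab19*, were past the threshold (Benjamini-Hochberg adjusted p under 0.05), both higher. Of all genes tested 9.84% were past it, 4.7% as higher and 5.14% as lower. In 6 of the 10 members all Lcn10-KO values lay above all WT values, as they did in 15.5% of all genes tested, and in 32.4% the groups did not overlap, in either direction. The same contrast chose the set, and the 8 are the members left after its 2 largest differences were set aside. Nothing is therefore read from these counts and medians.

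**Figure D2:**
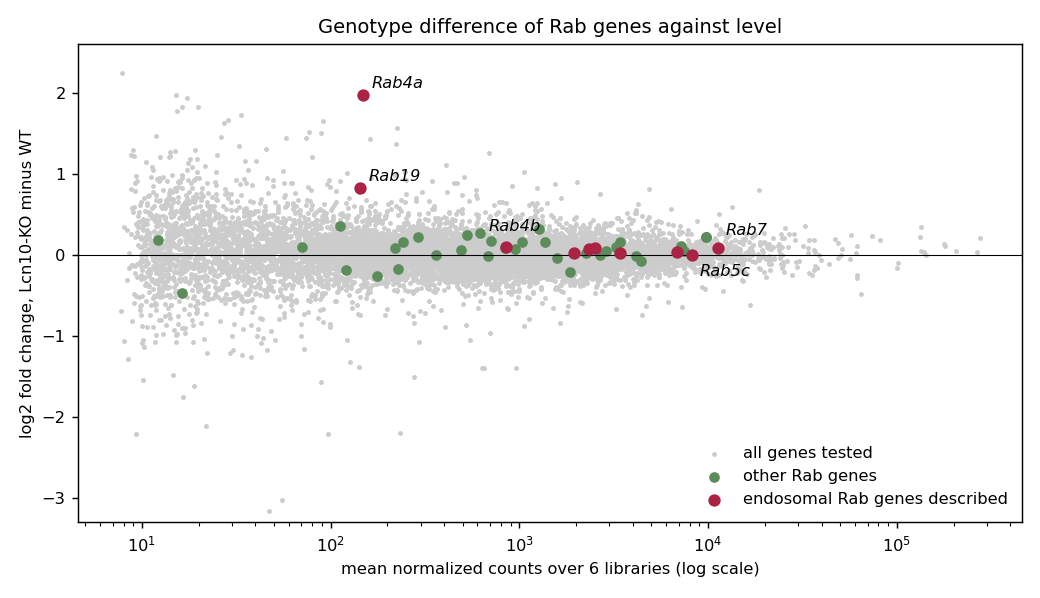
Log2 fold change (Lcn10-KO minus WT) against mean normalized counts over 6 libraries (log axis) for the 12091 genes tested (grey), the 34 tested other Rab genes (green) and the 10 endosomal Rab genes (red). *Rab4a* at 1.97 and *Rab19* at 0.82 are the only red points far from 0.

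Within a genotype the members were ordered far apart in level. Compared per kilobase of the principal transcript, the WT means ran from 5099 normalized counts for *Rab7* through 4296 for *Rab5c*, 2196 for *Rab14*, 1448 for *Rab11a* and 967 for *Rab5a* to 692 for *Rab4b*, 689 for *Rab35* and 402 for *Rab11b*. *Rab19* followed at 66.0 and *Rab4a* was last at 42.1. *Rab4b* and *Rab35* overlapped in the WT libraries, and all other neighbours in this order were separate. In Lcn10-KO the order was the same down to *Rab11b*, with no neighbours overlapping, and then *Rab4a* at 166 lay above *Rab19* at 115. *Rab4a* thus moved from the last place to the last but one, and its share of the summed level of the 10 genes per kilobase went from 0.264% ± 0.0365 to 1.00% ± 0.0394 (SD, n = 3 each). With the mean length of all coding transcripts of a gene in place of the principal one, *Rab11b* moved ahead of *Rab4b* and *Rab35* in both genotypes, and every other member kept its place relative to the rest.

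**Figure D3:**
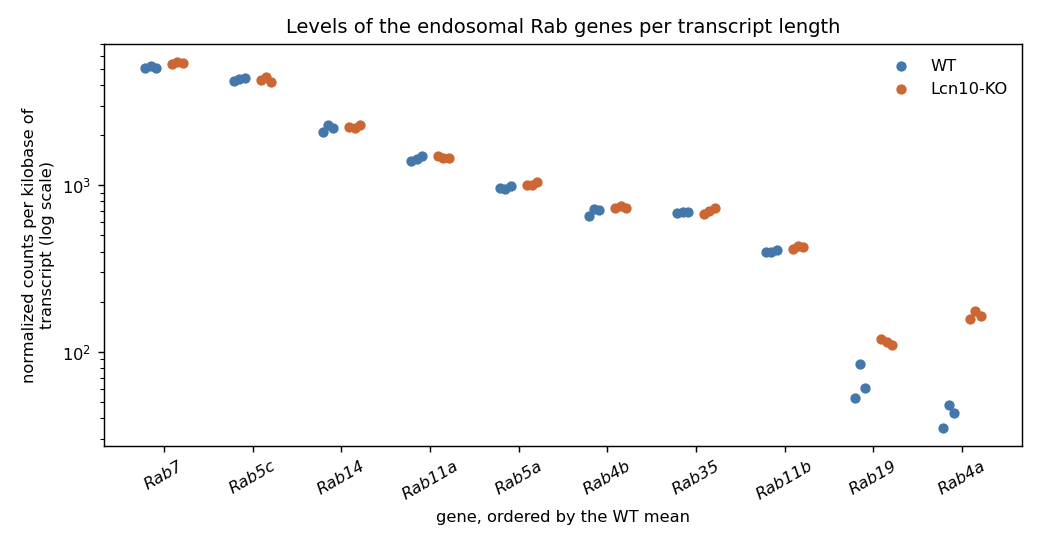
Normalized counts per kilobase of transcript (log axis) of the 10 genes in each library, ordered by the WT mean; blue points are WT and orange points Lcn10-KO. The genes span from 5099 for *Rab7* to 42.1 for *Rab4a* in WT, and *Rab4a* passes *Rab19* in Lcn10-KO.

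RefSeq promoter windows (GRCm38.p6, 300 bases around the RefSeq start) were held for 9 of the 10 members; *Rab4a* has no entry. That of *Rab19*, at chr6:39381103-39381402 on the plus strand, holds 9 CG pairs, near the median of 7 over 32851 windows. Most of it lies inside the gene as GENCODE draws it, from 39381175, where that annotation has an untranslated first exon. The 9 windows of the 8 other members (*Rab7* has a pair of starts) hold 12 to 43, the lowest being that of *Rab11b*, and 39.6% of all windows hold 12 or more. The letters CCGCCC, searched on both strands, are in 8 of these 9 windows, against 35.7% of all windows, and are not in those of *Rab11b* and *Rab19*. The GC content of the *Rab11b* window was 51.3% and that of the *Rab19* window 55.7%. The letters CACGTG, the E-box core, are in the window of *Rab5a* alone among the 9 members with a window and in 7.15% of all windows. These matches describe the letters in the windows, not sites in use.

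The genes around *Rab4a* on chromosome 8 were looked at next. Distances were taken between the lower coordinates of the annotated genes, whatever their strand. Of 28 tested genes within 1 Mb of *Rab4a* by this measure, *Ccsap* was past the threshold as higher and *Fanca* as lower (named after its values were seen), and 26 were not past it. Of the 28 genes 7.14% were called, against 9.84% of all genes tested. *Gm20388*, which covers *Rab4a*, also spans most of the 28 genes, past the threshold or not. Among them are *Ccsap*, *Fanca*, *Rhou*, *Nup133*, *Abcb10*, *Gas8* and *Afg3l1*. Whether the counting used strand is unknown, so its reads may not be told apart from theirs. *Ccsap*, which encodes a protein of centrioles and the spindle, is the nearest tested gene by this measure, at 34.8 kb; it lies on the minus strand, so this is the distance to its 3' end and not to its transcription start. It had 370.2, 347 and 352 normalized counts in WT, against 452, 453 and 432 in Lcn10-KO. The groups did not overlap, and the log2 fold change was 0.32 ± 0.07 (SE, limma adjusted p = 0.0137). This call was lost without Lcn10-KO replicate 1, 2 or 3 (adjusted p = 0.0517, 0.0778 and 0.0596) and in limma without the trend (0.0796).

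On the other side the nearest tested gene was *Rhou*, which encodes a small GTPase, at -152 kb. It had 28.4, 30.8 and 29.7 normalized counts in WT and 57.5, 44.8 and 40.6 in Lcn10-KO. Its groups did not overlap either, but at this low level the log2 fold change of 0.65 ± 0.21 (SE) did not pass the test (limma adjusted p = 0.0682). The next genes out had smaller differences. *Nup133* (a nuclear pore subunit) and *Abcb10* (a mitochondrial transporter) had log2 fold changes of -0.06 ± 0.05 and 0.05 ± 0.07, and *Gas8* and *Afg3l1* of 0.03 ± 0.08 and -0.09 ± 0.05 (SE). None of these 4 passed the test, with limma adjusted p of 0.221 to 0.858.

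**Figure D4:**
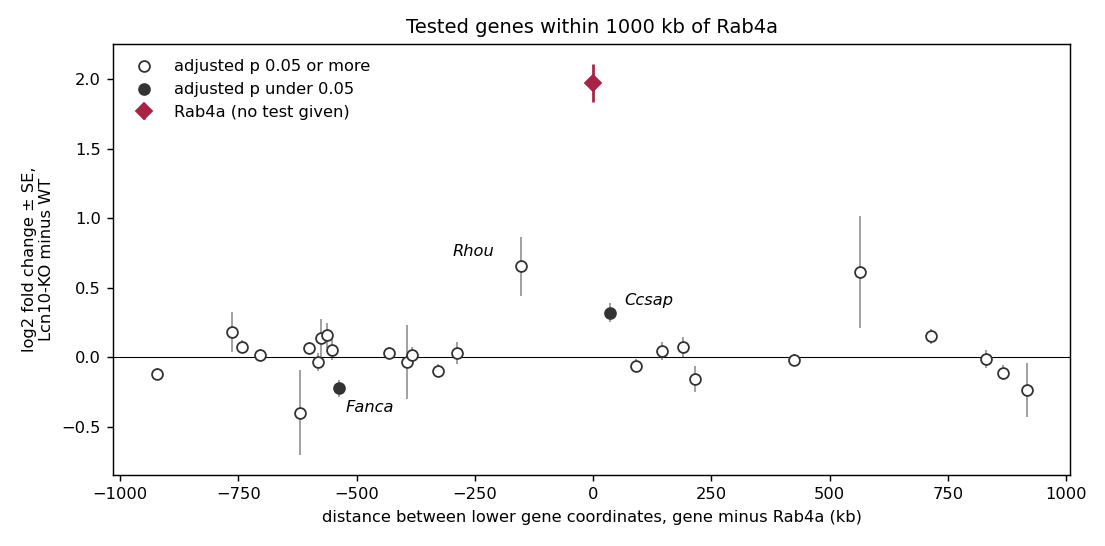
Log2 fold change ± SE (Lcn10-KO minus WT) of the 28 tested genes against the distance of their lower coordinates from that of *Rab4a* (kb); filled points have an adjusted p under 0.05 and the red diamond is *Rab4a*. *Ccsap* at 0.32 is filled, and *Rhou* at 0.65 is not.

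Among the other genes of the Rab and endosome system, 17 of 193 tested were past the threshold, 14 higher and 3 lower in Lcn10-KO (limma, adjusted p under 0.05). That is 8.81%, against 9.84% of all genes tested. The median log2 fold change was 0.05 over the 193 genes, against -0.0011 over all genes tested. Of the 193 genes 133 (68.9%) were above 0, against 6014 (49.7%) of all 12091 genes tested. Without Lcn10-KO replicate 3 no gene of the lists passed (44 at an unadjusted p under 0.05, against 2541 of all 12091 genes tested). Without Lcn10-KO replicate 2 it was 1 and without Lcn10-KO replicate 1 it was 5. Without WT replicate 3 it was 10 and without WT replicate 2 it was 31. In limma without the trend it was 0 (49 at an unadjusted p under 0.05, against 2713 of all 12091 genes tested). Of the 17, not a single gene was past the threshold in each of the 6 leave-outs.

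Of 49 other Rab genes found, 34 passed the filter and were tested: 3 rose, 0 fell and 31 did not pass, with a median log2 fold change of 0.08. *Rab43*, a Rab of the Golgi, had 1071, 1231 and 1123 normalized counts in WT and 1386, 1399.8 and 1462 in Lcn10-KO. Its libraries did not overlap, and the log2 fold change was 0.31 ± 0.06 (SE, limma adjusted p = 0.00772). *Rab8b*, of the traffic to the cell surface, rose from 9035 ± 411 to 10540.1 ± 583 (SD, n = 3 each), by 0.22 ± 0.05 (SE, adjusted p = 0.0183). *Rab7b*, which acts between late endosomes and the Golgi, rose from 8995 ± 876 to 10469.8 ± 160.3 (SD, n = 3 each), by 0.22 ± 0.06 (SE, adjusted p = 0.0455). WT replicate 1 was the lowest library for each of these 3 genes, and *Rab7b* did not pass after quantile normalization (adjusted p = 0.0692). *Rab5b*, the third Rab5 isoform, was singled out after its values were seen: it had a log2 fold change of 0.16 ± 0.05 (SE) and did not pass (adjusted p = 0.0528).

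In the list of Rab4 and Rab11 effectors and other recycling genes, 26 of 29 genes were tested, and 2 rose, 1 fell and 23 did not pass, with a median log2 fold change of 0.02. *Rab11fip5*, an effector of Rab11, had 2422, 2933 and 2619.5 normalized counts in WT and 3183, 3576 and 3468 in Lcn10-KO. It rose by 0.36 ± 0.07 on the log2 scale (SE, limma adjusted p = 0.0137), again with WT replicate 1 the lowest library. *Myo5a*, a myosin motor that carries vesicles, rose by 0.18 ± 0.05 (SE, adjusted p = 0.0488) and did not pass after quantile normalization (0.0753). *Ehd1*, an ATPase that shapes recycling tubules, fell by 0.18 ± 0.05 on the log2 scale (SE, adjusted p = 0.0391), from 2286 ± 66.6 to 2016 ± 113 (SD, n = 3 each).

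The Rab5 list held 28 tested genes, of which 3 rose, 0 fell and 25 did not pass, with a median of -0.01. *Snx5*, a sorting nexin of the coat that retrieves cargo from endosomes, had 13359, 14981 and 14707 normalized counts in WT and 16231, 16540.4 and 16381 in Lcn10-KO. It rose by 0.19 ± 0.05 on the log2 scale (SE, limma adjusted p = 0.0246). *Appl2*, a Rab5 effector, rose by 0.23 ± 0.06 (SE, adjusted p = 0.0460).

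Of the 24 tested genes of the Rab7 list 2 rose, 0 fell and 22 did not pass, with a median of 0.08. *Vps39*, a subunit of the complex that tethers late endosomes to lysosomes, rose from 1997 ± 69.6 to 2254 ± 26.8 normalized counts (SD, n = 3 each), by 0.18 ± 0.04 on the log2 scale (SE, limma adjusted p = 0.0281). *Wdr91*, a Rab7 effector, rose by 0.17 ± 0.05 (SE, adjusted p = 0.0382). *Vps29*, a retromer subunit, had a log2 fold change of 0.13 ± 0.04 (SE) and did not pass (adjusted p = 0.0782).

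Log2 fold changes lay above 0 in 14 of 18 tested DENN genes and 21 of 27 TBC genes, regulators of the GTP cycle. That is 77.8% of each list, against 49.7% of all genes tested. Such a share was not particular to these regulators. It was 87.5% in the list of prenylation and membrane delivery, 81.25% in the SNAREs and 79.2% in the Rab7 list. The other Rab genes had 70.6%, the cargo receptors 58.3%, the recycling effectors 57.7% and the Rab5 list 46.4%. Of 18 tested DENN family genes 2 rose, 1 fell and 15 did not pass, with a median of 0.06. *Dennd2a* was the gene furthest from 0 among the called ones of all these lists, with 82.6, 122 and 84.9 normalized counts in WT and 165, 153 and 146 in Lcn10-KO. Its libraries did not overlap, and it rose by 0.69 ± 0.15 on the log2 scale (SE, limma adjusted p = 0.0177). *Dennd5a* rose by 0.15 ± 0.05 (SE, adjusted p = 0.0488), and *Dennd2c* fell by 0.28 ± 0.07 on the log2 scale (SE, adjusted p = 0.0283). Of 27 tested TBC genes 2 rose, 0 fell and 25 did not pass, with a median of 0.07. *Tbc1d8* rose from 404 ± 31.5 to 514 ± 47.2 normalized counts (SD, n = 3 each), by 0.34 ± 0.08 (SE, adjusted p = 0.0253), and *Tbc1d22a* by 0.19 ± 0.05 (SE, adjusted p = 0.0422), while *Tbc1d1* had -0.18 ± 0.06 (SE) and did not pass (adjusted p = 0.0569).

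None of the 8 genes that prenylate Rabs or carry them to and from membranes passed the limma threshold (2 at an unadjusted p under 0.05), and the median was 0.03. *Chml*, which encodes an escort protein, differed by -0.18 ± 0.06 on the log2 scale (SE, adjusted p = 0.0911), and *Rabac1* by 0.08 ± 0.05 (SE, adjusted p = 0.275). Of the 16 tested endosomal SNAREs, the proteins that fuse vesicles with their targets, 0 passed the limma threshold (4 at an unadjusted p under 0.05), with a median of 0.07. Beside these lists, 3180 of all 12091 genes tested had an unadjusted limma p under 0.05. *Vamp2*, *Vamp8* and *Stx8* had log2 fold changes of 0.22 ± 0.07, 0.14 ± 0.05 and 0.21 ± 0.07 (SE, adjusted p = 0.0553, 0.0732 and 0.0784).

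Among 12 receptors and other cargo proteins that travel these routes 1 fell, 0 rose and 11 did not pass, with a median of 0.02. *Lrp1*, a large endocytic receptor that clears many ligands, had 72284, 67486 and 60379 normalized counts in WT, against 57107, 54476.5 and 56193 in Lcn10-KO. The groups did not overlap, WT replicate 1 was the highest library, and it fell by 0.25 ± 0.06 on the log2 scale (SE, limma adjusted p = 0.0244). *Sort1*, the sorting receptor sortilin, had a log2 fold change of 0.36 ± 0.11 (SE) and did not pass (adjusted p = 0.0823).

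**Figure D5:**
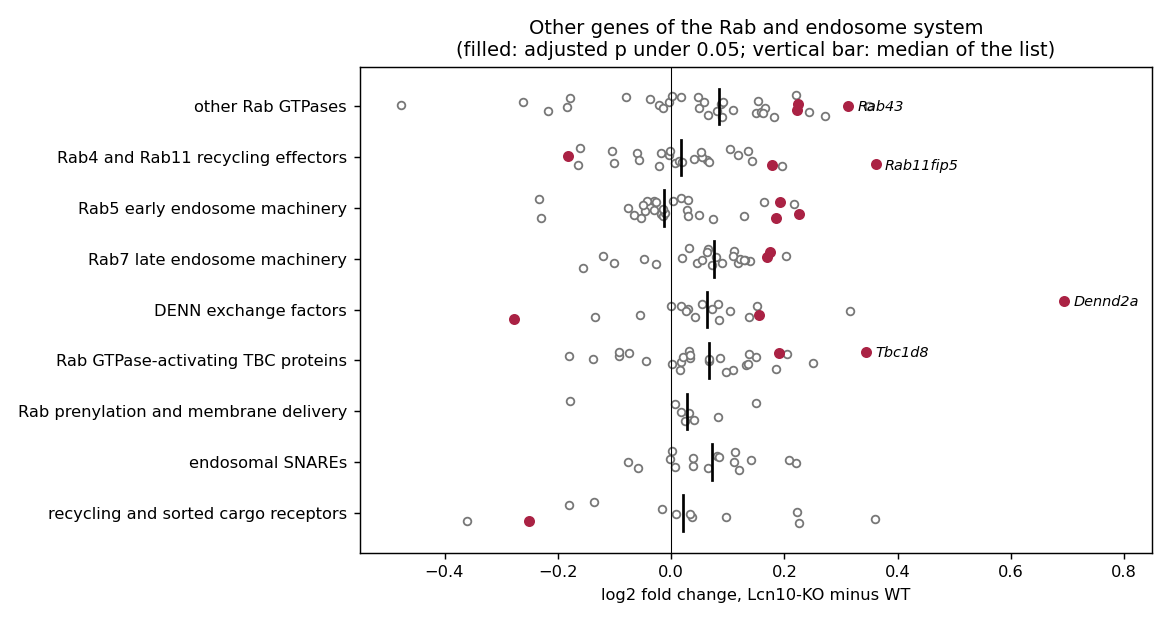
Log2 fold change (Lcn10-KO minus WT, horizontal axis) of each tested gene in 9 lists of the Rab and endosome system; filled red points have an adjusted p under 0.05 and the vertical bar is the median of a list. The medians lie between -0.01 and 0.08, and *Dennd2a* at 0.69 is the filled point furthest to the right.

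The genes whose levels followed *Rab4a* most closely over the 6 libraries were named by Pearson's r on log2(value + 1), among 10211 genes with a mean of at least 50 and an official symbol. They were *Ly9* (a receptor of the SLAM family), *Ctsb* (cathepsin B), *Glul* (glutamine synthetase), *Nr1h3* (liver X receptor alpha) and *Tubb2a* (a beta tubulin), with r of 0.999, 0.999, 0.997, 0.996 and 0.996. The points share the libraries and the genotype contrast by which *Rab4a* was chosen, so high r values are no independent sign. Among the members, *Rab7* had an r of 0.953 with *Rab4a* and *Rab19* of 0.944, while *Rab5c* had 0.061. The 5 genes shared the direction of *Rab4a* but not its size, with log2 fold changes of 0.39, 0.21, 0.28, 0.40 and 0.29 in the order given. After quantile normalization that of *Ctsb* was 0.06 (limma adjusted p = 0.309).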

How the data were processed

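The authors deposited a table of a signal, read counts per gene scaled between 6 libraries; the submitters' processing notes name Salmon 0.11.2, STAR 2.6.1a, DESeq2, bcl2fastq and build mm10. The role of each tool, the annotation and the strand setting are not given there. The median ratio factors of the 6 columns were all 1.00. Between 90.3% and 92.3% of values under 12 were whole multiples of 1 read within 0.1 reads. The rest were not, so the values were not turned back into reads and no test on counts was run.

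A gene was tested if 3 or more libraries had a value of 10 or more: log2(value + 1) was fitted on genotype with limma 3.58.1 (R 4.3.3), with a mean-variance trend and robust estimation. Benjamini-Hochberg adjustment ran over all 12091 genes, with a threshold of 0.05. Each SE of a log2 difference is that of limma and does not rest on the gene's own libraries alone. Within genotypes the pooled SD of log2(value + 1) was 0.242 for *Rab19* and 0.0214 for *Rab7*, with limma SEs of 0.15 and 0.04. A fold change on this scale understates that of low genes.

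The members and lists were chosen with earlier results of these data known. Lists were described by counts and medians. Named were all members, *Lcn10*, the 3 smallest p of each list, the 5 genes most like *Rab4a* and its 3 nearest tested genes on each side by lower coordinate; others are said to be named after their values were seen, and some genes under this rule are not reported here. Of 216 list names 214 were found in the table. Positions and transcripts came from GENCODE M21 (GRCm38, the assembly that mm10 names), promoters from RefSeq (GRCm38.p6). Same-numbered libraries of the 2 genotypes deviated together with correlations of 0.038, 0.073 and 0.014, so the numbers were not taken as pairs. Alternatives were other scalings, filters and pseudocounts, no trend, a replicate block and each library left out. Coding sequences were aligned with Biopython 1.88 and figures drawn with matplotlib 3.10.9 in Python 3.11.15.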

Additional observations from a re-analysis of the deposited data

How the results depend on the processing

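The log2 difference of *Rab4a* stayed between 1.82 and 2.08 in all 14 alternatives, and between 1.85 and 2.08 when 1 library was left out. Of all genes tested 1190 passed the threshold, against 14 in limma without the trend (2713 at an unadjusted p under 0.05) and 173 to 1652 when 1 library was left out, the lowest without Lcn10-KO replicate 3. Of the 193 other Rab and endosome genes 17 passed, against 0 in limma without the trend, 0 to 31 when 1 library was left out and 26 with the replicate block, which moved all genes tested to 1607 calls. Of the 10 members 2 passed, against 1 in limma without the trend and 1 to 2 when 1 library was left out (1 without Lcn10-KO replicate 2 or 3, where *Rab19* was lost). The same contrast chose the members, so nothing is read from their counts or from the steadiness of *Rab4a*. The cause of the moves in all these counts was not tested. A fit with fewer libraries also has fewer degrees of freedom. Every correlation of same-numbered libraries was below 0.1, so the replicate block pairs libraries by number only; WT replicates 1 and 2 correlated best with the Lcn10-KO library of their own number, and WT replicate 3 with Lcn10-KO replicate 1 (0.026, against 0.014 with replicate 3). Rescaling by the median ratio changed no count, because the deposited values already carry it. Low depth limits *Rab4a*, *Rab19* and *Rhou*, whose WT values rest on few reads.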
